A study of Caenorhabditis elegans with 4 samples.

Results

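The oac genes of Caenorhabditis elegans are named for O-acyltransferase homology. They are described here in 2 libraries of adult animals depleted of ATTF-6, an AT-hook DNA-binding protein, in the germ line and in 2 control libraries. Members were found by their WormBase symbol, oac- followed by a number. All 56 such genes of the annotation had a value in the deposited tables, out of 46934 gene identifiers. The 39 members with at least 10 counts summed over the 4 libraries are described one by one or by range, and the other 17 are given by count. The 39 were thus selected on the summed count, over both groups alike, which is the measured value behind the choice. The lowest sum inside it was 12 (oac-56) and the highest outside it was 9 (oac-4). A member can reach the summed count through the group where it is higher.

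The ATTF-6 depletion libraries came from animals with the alleles GFP::tev::aid::attf-6 on chromosome I and wrdSi51 on chromosome II. The wrdSi51 transgene expresses TIR1, the adaptor that directs a degron-tagged protein to degradation when auxin is present, from the germline promoter of mex-5. The control libraries came from animals with wrdSi51 alone. Both groups were grown at 20 °C and moved to plates with 4 mM auxin at the L4 larval stage, and whole adults were collected. The groups therefore differ in the tag on attf-6 and in the loss of the protein, which cannot be told apart, and the mex-5 promoter directs the depletion at the germ line. The age of the adults in hours is not given.

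Proteins of this kind are multi-pass membrane proteins with an acyltransferase domain of the class known as acyltransferase 3. Bacterial proteins with this domain add acyl groups to sugars of the cell surface. In C. elegans the same domain is found in NRF-6 and NDG-4, whose mutants resist the nose contraction caused by fluoxetine, in RHY-1, a negative regulator of the hypoxia factor HIF-1, and in BUS-1, which affects the adhesion of bacteria to the cuticle. Most oac genes carry a name from sequence homology only, so no role is given below for single members.

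The counts on genes summed to between 23923423 and 27269737 in the depletion libraries and to between 29753993 and 32096525 in the control libraries. Normalized counts are given as CPM (counts scaled to the TMM-adjusted library size), and 3 counts correspond to between 0.0920 and 0.132 CPM. The groups were compared with edgeR's quasi-likelihood test, two-sided, with Benjamini-Hochberg adjustment over all 16591 genes that passed the expression filter, and every adjusted p below is from this test unless DESeq2 is named. The median log2 change of these genes was 0.16 and the quartiles were -0.83 and 0.80. The replicates differed more between the depletion libraries than between the control libraries. The chi-square per gene was 47.0 and 3.67, and no pair was within sampling noise. A fit without 1 library takes its spread from the other group alone, so its calls and losses of calls are descriptions only. The attf-6 mRNA had 2290 and 3504 counts upon depletion and 5310 and 5233 in the control (adjusted p = 0.0042), but auxin acts on the protein, so this does not measure the depletion.

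RNA of the germ cell and oocyte lists was mostly lower upon depletion. All 16 genes of a germ cell list fell, and their summed level was 1304 and 1555 CPM in the depletion libraries, against 3905 and 3926 CPM in the control libraries. Of 12 oocyte genes, 10 fell and 2 rose. In whole animals, fewer cells of a type and less RNA per cell cannot be told apart. The lists of somatic tissues had positive median changes, as did the sperm list, which is also of the germ line. Of 10 genes each, 9 rose in the intestine list, 8 in the muscle list, 4 in the neuron list and 9 in the sperm list, and the others did not pass the test. In the hypodermis list 2 rose, 2 fell and 6 did not pass. Over all genes tested, 30.9% were called higher and 32.1% lower, which the neuron and hypodermis counts did not clearly exceed. The median log2 changes were 0.59 for intestine, 0.51 for muscle, 0.42 for neuron, 1.33 for sperm and 0.23 for hypodermis. The median of all genes tested was 0.16. The part of these shifts in the oac values was not tested. A scaling of the libraries to the summed counts of the intestine, hypodermis, muscle and neuron genes is given beside the members.

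The oac genes together had more RNA upon ATTF-6 depletion. Their summed level was 442.2 and 395.3 CPM in the depletion libraries, against 124.6 and 119.4 CPM in the control libraries, which is 3.43-fold higher in the mean. Most of this was in 3 genes. In the depletion libraries oac-14, oac-6 and oac-20 held 78.3% and 73.2% of the family's counts, and in the control libraries they held 50.8% and 48.8%. The other 53 members together had 96.1 and 105.9 CPM upon depletion, against 61.2 and 61.1 CPM in the control, which is 1.65-fold higher in the mean. After scaling to the somatic lists the family total was 2.28-fold higher and the sum of the other 53 was 1.10-fold higher upon depletion. These sums are descriptions without a test.

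**Figure D1:**
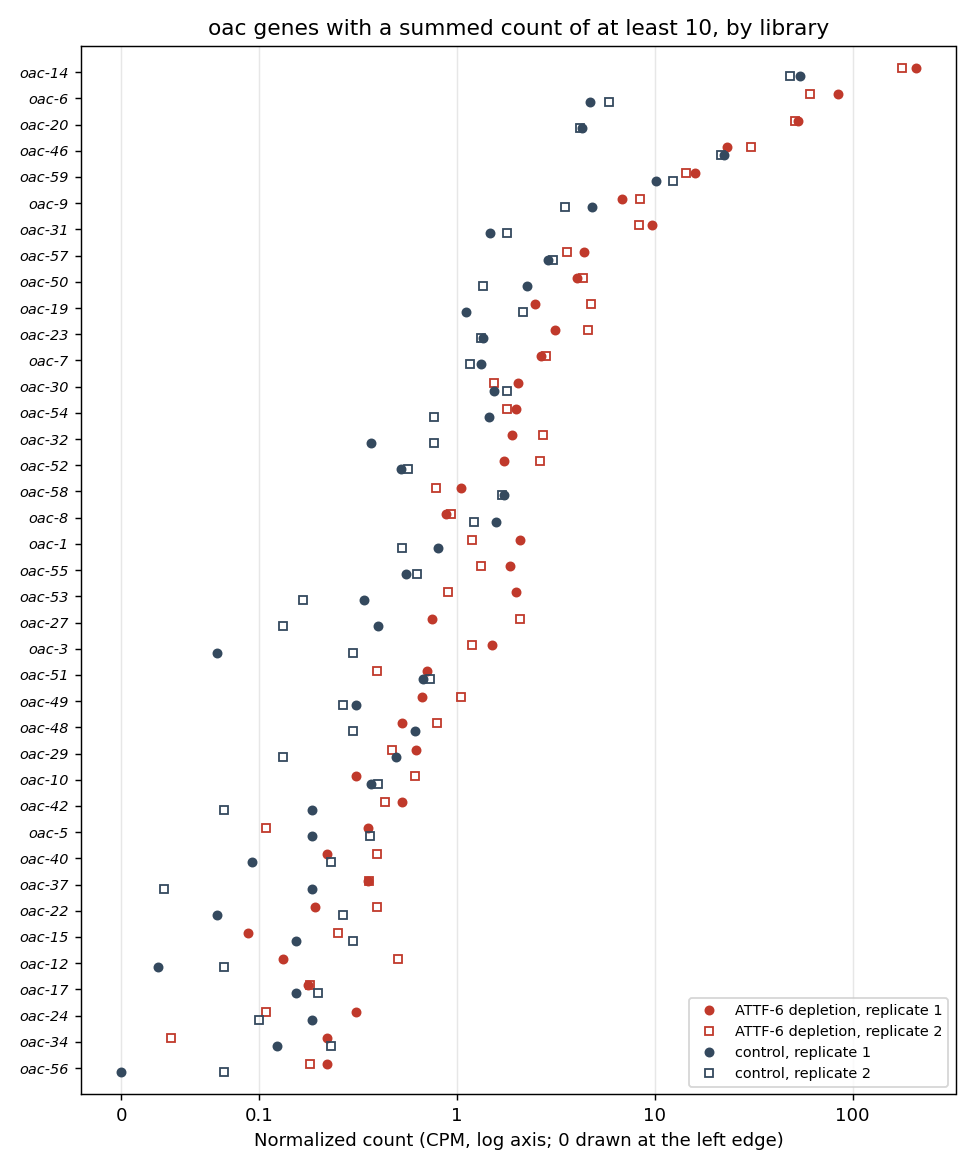
Normalized count (CPM, log axis) of the 39 described oac genes, 1 row per gene ordered by mean level, with 1 point per library (red for ATTF-6 depletion, dark blue for control). For oac-6 and oac-20 the depletion libraries sit more than 10-fold to the right of the control libraries, while for oac-46 the 4 points lie close together, between 21.7 and 30.8 CPM.

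Of the 39 members, 29 passed the expression filter and were tested, and 19 of these rose at an adjusted p under 0.05. No member fell. Over all genes tested, 63.0% were called, 30.9% as higher and 32.1% as lower. For the tested oac genes the share called higher was 65.5%. The median change of these 29 was 1.20 on the log2 scale and the quartiles were 0.43 and 2.00, beside a median of 0.16 for all genes tested. Of the 19, 17 rose by at least 1 on the log2 scale, which 16.0% of all genes tested did, and 20.0% of all genes fell by as much. Of the 39 described members, 25 had both depletion libraries above both control libraries, 2 had both below (oac-8 and oac-58) and 12 overlapped. Among all 19413 genes with at least 10 counts in sum, both depletion libraries were above in 41.5%. The 25 include oac-12, oac-37 and oac-56, which were not tested and reached 10 counts mostly through the depletion libraries. The 25 is therefore a description too, not support for a direction. The shares below and overlapping were not counted over all genes, so the 2 and the 12 have no background here. At an unadjusted p under 0.05, 19 members were higher and 1, oac-58, was lower in edgeR. In DESeq2, which tested 39 members, 12 rose and 0 fell. There oac-1, oac-7, oac-19, oac-42, oac-49, oac-55 and oac-59 lost the call. Of the 29, 7 had fewer than 2 control libraries over the filter and passed through the depletion libraries, and 5 of these are among the 19 (oac-3, oac-27, oac-42, oac-49 and oac-53). Such genes entered the test through the group where they were higher, so the counts and medians over the tested members are a description of these genes, not support for a direction of the family.

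**Figure D2:**
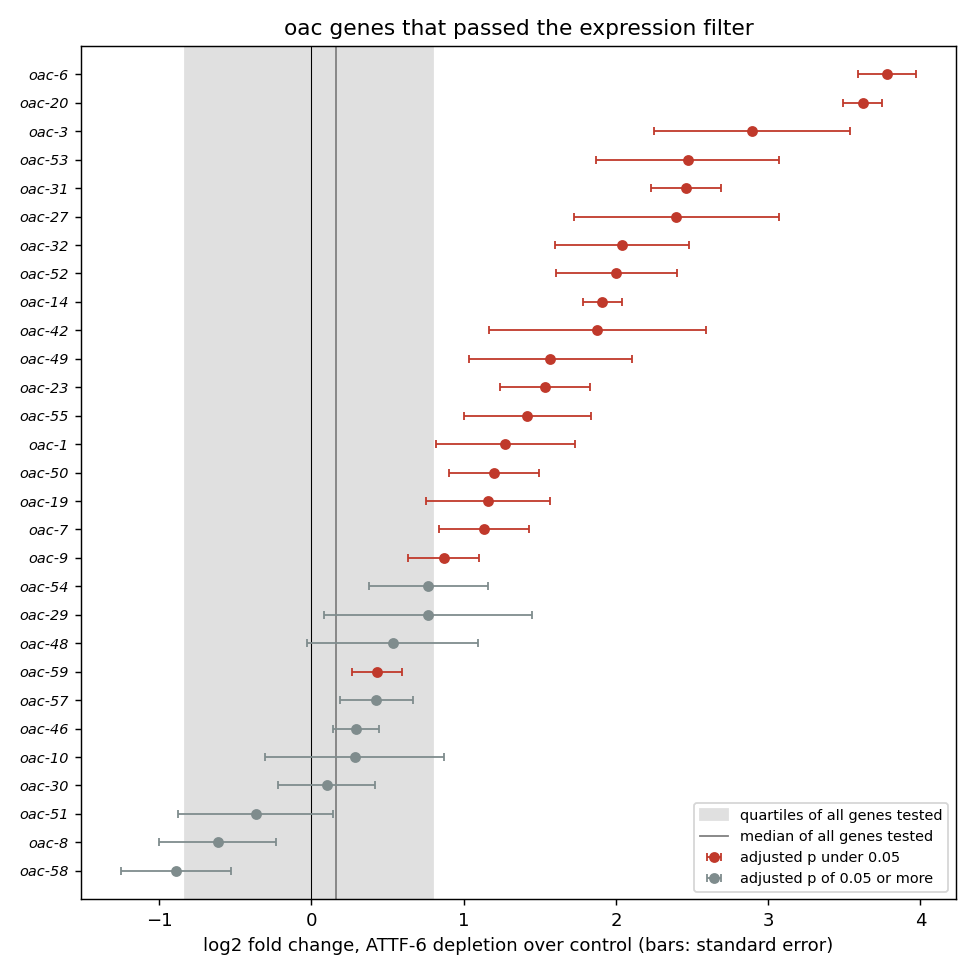
Log2 fold change (ATTF-6 depletion over control, x axis) of the 29 oac genes tested, 1 row per gene, with the standard error as bars, red where the adjusted p was under 0.05. The gray band spans the quartiles of all 16591 genes tested, from -0.83 to 0.80, and 18 of the 19 red points lie to the right of it.

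The 4 members with the smallest relative errors rose by between 1.91 and 3.78 on the log2 scale. The gene oac-6 (WBGene00007833, chromosome V: 16302717 to 16306159, plus strand, WBcel235) had 84.2 and 61.2 CPM in the depletion libraries, against 4.72 and 5.85 CPM in the control libraries. Its groups were far apart, at 72.7 ± 16.2 CPM upon depletion and 5.29 ± 0.800 CPM in the control (SD, n = 2 each), and it rose by 3.78 ± 0.19 on the log2 scale (SE, edgeR adjusted p = 2.4e-06). Among all genes tested, 0.344% had a log2 fold change at least as large. The gene oac-20 (WBGene00009488, chromosome V: 15978714 to 15981779, plus strand) had 53.2 and 51.1 CPM upon depletion, against 4.29 and 4.17 CPM in the control. Its replicates were close in both groups, and its rise was 3.62 ± 0.13 on the log2 scale (SE, edgeR adjusted p = 1.3e-06). A change of that size or larger was found for 0.392% of all genes tested.

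The gene oac-14 (WBGene00008602, chromosome X: 10139372 to 10142013, minus strand) was the member with the highest level per kilobase of exon in both groups and the only one on the X chromosome. It had 209 and 177 CPM in the depletion libraries, against 54.3 and 48.3 CPM in the control libraries, so the groups did not overlap. Its rise was 1.91 ± 0.13 on the log2 scale (SE, edgeR adjusted p = 5.5e-06), and 3.65% of all genes tested had a value at least as large. The gene oac-31 (WBGene00018707, chromosome V: 1538354 to 1541886, minus strand) had 9.65 and 8.29 CPM upon depletion, against 1.47 and 1.79 CPM in the control. Its rise was 2.46 ± 0.23 on the log2 scale (SE, edgeR adjusted p = 3.0e-05), with both depletion libraries above both control libraries. After scaling to the somatic lists, the log2 fold changes of these 4 genes were 3.19 for oac-6, 3.03 for oac-20, 1.32 for oac-14 and 1.87 for oac-31, each with an adjusted p under 0.05.

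Per kilobase of exon, the levels of the described members spanned 0.0633 to 86.0 CPM per kb upon depletion and 0.0165 to 22.9 CPM per kb in the control. The exons of a member added up to between 1569 and 2563 nt. On this scale oac-14 was first in both groups, with 86.0 CPM per kb upon depletion and 22.9 CPM per kb in the control. In the control the next were oac-46 with 9.16, oac-59 with 5.05, oac-6 with 2.38 and oac-20 with 1.85 CPM per kb. Upon depletion oac-6 with 32.8 and oac-20 with 22.8 CPM per kb stood above oac-46 with 11.2 and oac-59 with 6.80 CPM per kb. Within each group the libraries of neighbours in these orders did not overlap.

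The 2 abundant members that stood below oac-6 and oac-20 upon depletion moved little. The gene oac-46 (WBGene00011768, chromosome II: 8848843 to 8852096, minus strand) had 23.2 and 30.8 CPM upon depletion, against 22.4 and 21.7 CPM in the control. Its log2 change of 0.29 ± 0.15 (SE, edgeR adjusted p = 0.12) did not pass the test. It was 0.47 without depletion replicate 1 (adjusted p = 8.6e-05), 0.019 without depletion replicate 2 (adjusted p = 0.90) and -0.30 after scaling to the somatic lists (adjusted p = 0.13). The gene oac-59 (WBGene00016585, chromosome IV: 12293233 to 12301261, minus strand) had 16.0 and 14.3 CPM upon depletion, against 10.1 and 12.3 CPM in the control. Its log2 change of 0.43 ± 0.17 (SE, edgeR adjusted p = 0.048) was the smallest of the 19 calls. The call was lost in DESeq2 (0.29, DESeq2 adjusted p = 0.30) and in edgeR with DESeq2's size factors (0.31, adjusted p = 0.13). It was also lost without a filter (adjusted p = 0.079) and with a summed count of at least 10 (adjusted p = 0.066). A replicate block and a fit of whole-count genes kept it. The log2 change of oac-59 was 0.34 without depletion replicate 1 and 0.46 without depletion replicate 2. It was 0.27 without control replicate 1, 0.56 without control replicate 2 and -0.16 after scaling to the somatic lists.

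Among members of lower abundance, 4 more rose and kept the call under every alternative that tested them, as did oac-6, oac-14, oac-20 and oac-31. The gene oac-3 had 34 and 33 counts in the depletion libraries, against 2 and 9 counts in the control libraries, and it rose by 2.89 ± 0.64 on the log2 scale (SE, edgeR adjusted p = 0.0038). The size of the oac-3 change was 2.13 without control replicate 1 and 4.33 without control replicate 2. Both control libraries of oac-3 were under the expression filter, so this gene entered the main test through the depletion libraries. The gene oac-32 had 43 and 76 counts upon depletion, against 12 and 23 counts in the control, and it rose by 2.04 ± 0.44 on the log2 scale (SE, edgeR adjusted p = 0.0032). The groups of both genes were separate, although the control libraries differed between themselves. The gene oac-52 had 39 and 73 counts upon depletion, against 17 and 17 counts in the control, and it rose by 2.00 ± 0.40 on the log2 scale (SE, edgeR adjusted p = 0.0021). The gene oac-23 had 71.3 and 128 counts upon depletion, against 44 and 40 counts in the control, and it rose by 1.53 ± 0.30 on the log2 scale (SE, edgeR adjusted p = 0.0018). Part of the oac-23 reads also aligned elsewhere, so its count is fractional.

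The 4 other members with a rise among the 12 largest rested on few counts, as did oac-3 with 78 in sum. The gene oac-53 had 45 and 25 counts upon depletion, against 11 and 5 counts in the control. Its log2 fold change of 2.47 (adjusted p = 0.0060, edgeR) was 1.80 without depletion replicate 1, where the call was lost. The gene oac-27 had 17 and 58 counts upon depletion, against 13 and 4 counts in the control. Its log2 fold change of 2.40 (adjusted p = 0.012, edgeR) was 1.42 without depletion replicate 2, where the call was lost, and 3.37 without control replicate 1. The groups of oac-27 did not overlap, but the depletion libraries were far apart. The gene oac-49 had 15 and 29 counts upon depletion, against 10 and 8 counts in the control (log2 fold change 1.57, adjusted p = 0.030, edgeR). The call was lost without depletion replicate 2 (1.14), without control replicate 1 (1.66) and without control replicate 2 (1.45). The gene oac-42 had 12 and 12 counts upon depletion, against 6 and 2 counts in the control (log2 fold change 1.88, adjusted p = 0.045, edgeR). Leaving out any 1 library ended the oac-42 call, with log2 changes between 1.33 (without control replicate 2) and 2.75 (without control replicate 1). With all 4 libraries the call was also lost in DESeq2 (1.80, DESeq2 adjusted p = 0.25) and in edgeR with DESeq2's size factors (1.76, adjusted p = 0.059). Among the alternatives only the fit of whole-count genes kept it.

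The remaining 6 that rose, oac-1, oac-7, oac-9, oac-19, oac-50 and oac-55, had log2 fold changes between 0.87 (oac-9) and 1.42 (oac-55), with adjusted p between 0.0068 and 0.035 in edgeR. For all 6 the depletion libraries lay above the control libraries. None of the 6 passed the test after scaling to the somatic lists, where their log2 fold changes were 0.69, 0.55, 0.28, 0.57, 0.61 and 0.83 for oac-1, oac-7, oac-9, oac-19, oac-50 and oac-55. The calls of oac-7, oac-9, oac-50 and oac-1 were lost without control replicate 2. That of oac-19 was lost without depletion replicate 2 (0.55) or control replicate 1 (0.73). That of oac-55 was lost without depletion replicate 1 or control replicate 1, and that of oac-1 also without depletion replicate 1. In DESeq2 the calls of oac-1, oac-7, oac-19 and oac-55 were lost, and those of oac-9 and oac-50 were kept.

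The 10 tested members that did not pass the test had log2 fold changes between -0.89 (oac-58) and 0.77 (oac-54), and 3 of them, oac-8, oac-51 and oac-58, had a negative value. The gene oac-58 had 23.7 and 21.7 counts in the depletion libraries, against 56.5 and 51.2 counts in the control libraries, so it was lower in both (log2 change -0.89 ± 0.36, SE, edgeR adjusted p = 0.058). It was called lower in edgeR with DESeq2's size factors (-1.01, adjusted p = 0.035), without a filter (-0.93, adjusted p = 0.048) and after scaling to the somatic lists (-1.48, adjusted p = 0.0057). Without depletion replicate 1 the change of oac-58 was -1.11. The log2 change of oac-54 was 1.28 without control replicate 1, and no fit of all 4 libraries called this gene. The 10 described members below the filter had sums between 12 and 28 counts and at most 14 counts in a library, at which depth a difference was hardly detectable. The counts of oac-12 were 3 and 14 upon depletion, against 1 and 2 in the control, and those of oac-56 were 5 and 5 upon depletion, against 0 and 2 in the control. The difference in oac-12 rested on depletion replicate 2. With the control set to 3 counts per library, the ratio of mean CPM of oac-56 was 2.09. This is a description at a floor, not a bound on the true change. Fits without a filter, with a summed count of at least 10 and in DESeq2 tested these 10 genes and called 0 of them, with 0, 1 and 0 at an unadjusted p under 0.05. Without depletion replicate 1, the log2 change of oac-12 was 3.28.

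Many oac genes lie beside one another. Of the 56, 29 lie within 20 kb of another member, in 11 clusters, and by chromosome there are 15 on I, 6 on II, 13 on IV, 21 on V and 1 on X. Neighbours often differed in level and in change. On chromosome V, oac-6 lies between oac-5 and oac-7 on the same strand. The gene oac-5 (16292709 to 16295600) had 8 and 3 counts upon depletion, against 6 and 11 counts in the control, and it was not tested. The gene oac-7 (16309805 to 16314775) had 60 and 78 counts upon depletion, against 43 and 35 counts in the control, a rise of 1.13 ± 0.29 on the log2 scale beside 3.78 ± 0.19 for oac-6 (SE). The differences between neighbours in fold change were not tested.

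**Figure D3:**
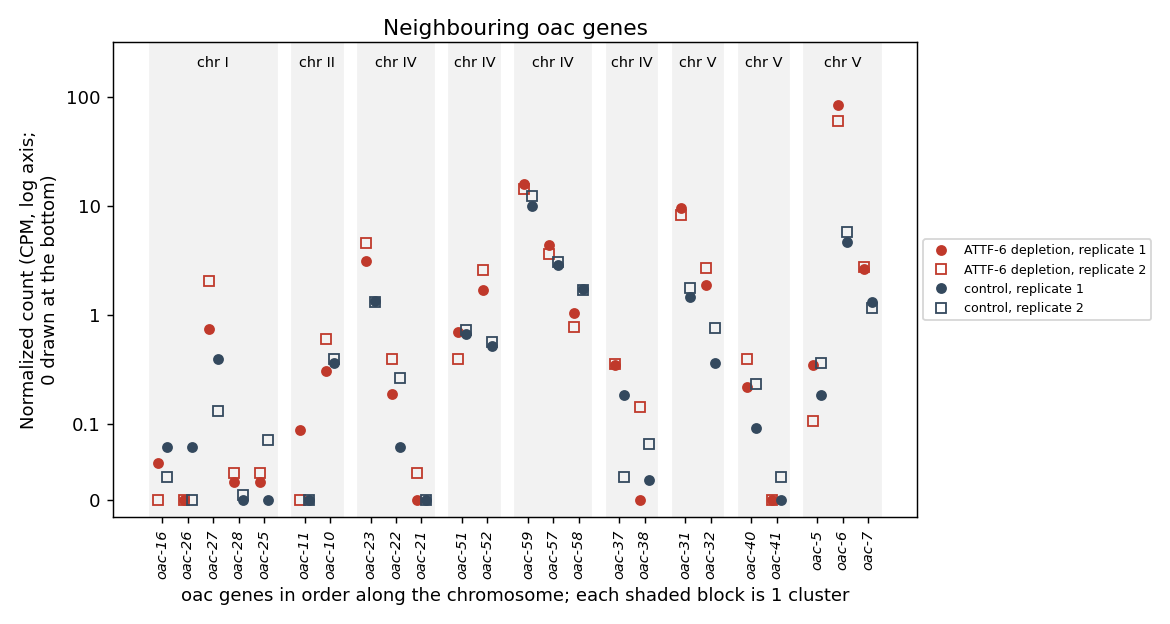
Normalized count (CPM, log axis) of the oac genes that lie within 20 kb of another member, in order along each chromosome, for the clusters with at least 1 described member, with 1 point per library (red for ATTF-6 depletion, dark blue for control). On chromosome V the red and blue points of oac-6 are far apart while those of oac-5 overlap, and on chromosome I 4 of the 5 genes lie at or near 0 in all 4 libraries.

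The pair oac-31 and oac-32, on the same strand of chromosome V, rose in both members, by 2.46 and 2.04 on the log2 scale, although oac-31 stood higher per kilobase, at 3.89 against 1.04 CPM per kb upon depletion and 0.707 against 0.254 CPM per kb in the control. The convergent pair oac-51 (4336801 to 4341306, plus strand) and oac-52 (4342262 to 4346612, minus strand) on chromosome IV was split. The gene oac-51 had 16 and 11 counts upon depletion, against 22 and 22 counts in the control (log2 change -0.37 ± 0.51, SE, edgeR adjusted p = 0.55), beside the rise of 2.00 for oac-52. Counting was by strand, so reads of convergent genes were kept apart. In the cluster of oac-59, oac-57 and oac-58 on the minus strand of chromosome IV, oac-57 had 99.7 and 101 counts upon depletion, against 94.5 and 92.7 counts in the control (log2 change 0.43 ± 0.24, SE, edgeR adjusted p = 0.15). The counts of oac-57 and oac-58 are fractional, so reads of these neighbours may be divided between them or with other places. In the cluster of oac-23, oac-22 and oac-21 on chromosome IV, oac-22 had 4.33 and 11 counts upon depletion, against 2 and 8 counts in the control, and oac-21 had 1 count in all.

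On chromosome I, 11 members lie between 12239160 and 12424411. Of these, oac-27 had at least 10 counts in sum, and the other 10 had at most 7 counts in sum over the 4 libraries. Its neighbours within 20 kb, oac-16, oac-25, oac-26 and oac-28, had sums of 4, 4.34, 2 and 2.34 counts, and oac-43 was the 1 member of the family without any count. At these depths no difference between the groups was detectable for the 10 genes. Reads of oac-25 and oac-28 were divided between several alignments, and the authors kept no read that aligned to over 10 places, so the low counts of near-identical genes are uncertain. Of all 56 members, 6 had a fractional count in some library, and 4 of these are among the 39. Exons of oac-48 and oac-56 overlap annotated piRNA genes on the same strand, and those of oac-21 overlap F56D6.9, and reads shared in this way may have gone uncounted.

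The scaling moved these values by a common amount. Scaling to the somatic lists moved the median log2 change of all genes by -0.59, and the median of the tested oac genes was 0.61, beside 1.20 with TMM. It left 10 members higher and 2, oac-8 (-1.20, adjusted p = 0.022) and oac-58, lower. With the size factors of DESeq2 the median over all genes shifted by -0.12, and edgeR called 17 members higher and 1 lower. In both fits the members with the largest changes, oac-6, oac-20 and oac-3, came in the same order.

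**Figure D4:**
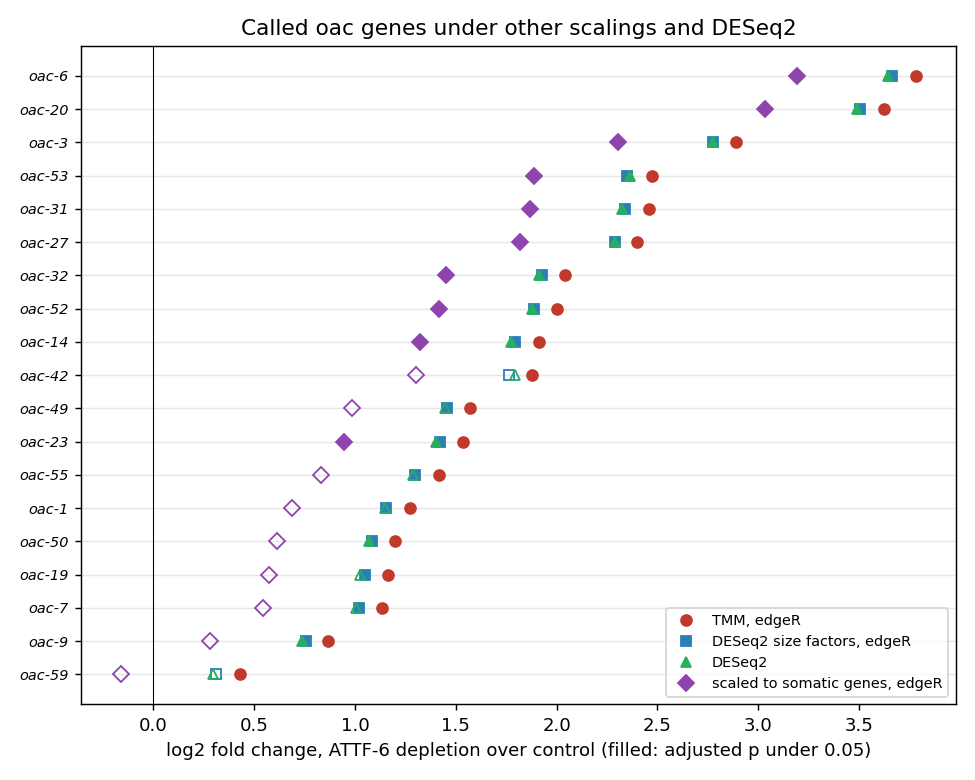
Log2 fold change (ATTF-6 depletion over control, x axis) of the 19 oac genes called by edgeR with TMM scaling, with 1 symbol per fit, filled where the adjusted p was under 0.05. The purple symbols, from scaling to the somatic lists, lie furthest left, 10 of them are filled, and the 1 for oac-59 lies below 0 at -0.16.

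Other acyltransferase genes, listed by name, had smaller median changes, at 0.42, 0.17 and -0.20 on the log2 scale for the 3 lists given here. The list of acyltransferase 3 genes outside the oac names holds 4 genes and did not come from a search for the domain, so others may exist. Of these 4, nrf-6 and ndg-4 rose and rhy-1 and bus-1 did not pass the test, beside 30.9% of all genes tested called higher. The gene nrf-6 had 189.7 and 199.8 CPM in the depletion libraries, against 128.7 and 144.5 CPM in the control libraries (log2 change 0.51 ± 0.11, SE, edgeR adjusted p = 0.0034). The gene ndg-4 had 65.0 and 61.0 CPM upon depletion, against 47.6 and 50.4 CPM in the control (log2 change 0.36 ± 0.10, SE, edgeR adjusted p = 0.013). Both values lay inside the quartiles of all genes tested, and in edgeR the list held 0 genes called higher without control replicate 1, without control replicate 2 and after scaling to the somatic lists, and 1 in DESeq2. Of 6 membrane-bound O-acyltransferases tested, another class of membrane enzymes that includes the makers of triglycerides and sterol esters, mboa-4 rose by 0.85 on the log2 scale (adjusted p = 0.0074) and the others did not pass the test. This list held 0 genes called higher in DESeq2, and in edgeR without control replicate 2 and after scaling to the somatic lists, which left 3 lower. Of 13 glycerolipid acyltransferases tested, the acl genes that build phospholipids, 3 rose and 5 fell, beside 30.9% and 32.1% of all genes tested. After scaling to the somatic lists 1 rose and 9 fell, and without control replicate 1, 1 rose and 5 fell. The largest rise was that of acl-13 (1.59, standard error 0.24, adjusted p = 4.0e-04, edgeR), and the largest falls were those of acl-3 and acl-6, with -1.39 and -1.34 (adjusted p = 3.4e-05 and 9.2e-06, edgeR).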

How the data were processed

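The 4 libraries were mRNA-seq of rRNA-depleted total RNA by their protocol, although their titles call them small RNA sequencing. The authors trimmed reads with TrimGalore, aligned them to WormBase WS279 with STAR, removed pairs with 1 aligned mate and counted by strand with featureCounts, dividing multi-mapped reads. The deposited values are expected counts per gene, not normalized. The authors' tool versions are not given in the sources used here. Symbols and coordinates are from Ensembl 115 (WBcel235), which held 46924 of 46934 identifiers. The 181 transposon rows were left out.

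Counts were rounded and fitted over all genes in edgeR 4.0.16 (R 4.3.3; filterByExpr with minimum count 10 and minimum total 15, TMM, prior count 0.125, Benjamini-Hochberg at 0.05), without a block. Alternatives were edgeR with DESeq2 size factors, DESeq2 1.42.0, other filters, a replicate block and leaving out each library. Another was scaling to the summed counts of 40 somatic genes, in which the most abundant genes weigh most. A fit of whole-count genes only was chosen after seeing the data. The fit was also run on simulated counts with the same dispersion in both groups and with changes only in genes of higher counts. That run does not speak for members with few counts or for the wider spread between the depletion libraries. Members and lists were chosen with earlier results of these data known. Values in every library are given for the 12 largest called changes of at least 1, the 6 members highest per kb of exon, and their neighbours within 20 kb. Members not in these sets were named after their values were seen. The paper's supplementary table numbers the control replicates the other way round, and the sample labels were used. The mRNA-seq methods of the authors call the 2 libraries of a group biological replicates. Their figure legends for these data call them sequencing replicates.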

Additional observations from a re-analysis of the deposited data

How the results depend on the processing

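Of the 19 members called higher, 8 kept the call in every alternative that tested them (oac-3, oac-6, oac-14, oac-20, oac-23, oac-31, oac-32 and oac-52). Of these, oac-3 entered the main test through the depletion libraries, as both its control libraries were under the filter. The alternatives include fits with a single library in a group, whose calls are descriptions only. The number of oac genes called was 12 of 39 tested in DESeq2, all higher. After scaling to the somatic lists it was 12 of 29 tested, 10 of them higher and 2 lower. It was 18 of 29 tested with DESeq2's size factors and 18 of 55 tested without a filter, each with 1 lower. With 1 library left out in turn it lay between 12 and 18, with 12 to 17 higher and 0 to 1 lower. The log2 fold change of oac-59 was -0.16 after scaling to the somatic lists. That scaling called 1783 of all genes higher and DESeq2 called 3426, against 5120, so that 19.5% and 38.7% of all calls were higher, against 49.0%. With a replicate block 18 oac genes were called, and oac-42 was lost (adjusted p = 0.052). The correlation of deviations between same-numbered libraries was -0.011, so the numbers were not taken as pairs. Over whole-count genes, an alternative chosen after seeing the data, 18 of 27 members were called higher. Depth limits the 27 members below the expression filter.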
